A study of Drosophila melanogaster with 9 samples.

Results

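Ovaries in which piwi mRNA was lowered in the germline were compared with control ovaries, gene by gene. The comparison takes the 2 gene tables whose names give a Piwi knockdown with intact HP1a, and the 2 Ctrl tables, so 4 of the 9 libraries of the study. A conflict has to be stated first. The sample labels call the same 2 libraries HP1a-GKD, where GKD is a germline knockdown, and give their flies the genotype UAS-Dcr-2, w1118/+ on the X chromosome, GAL4-nos.NGT over a Cy balancer on chromosome 2, and UAS-HP1a-RNAi over a plain chromosome 3. The Ctrl flies of the labels carried the same X chromosome and the same GAL4-nos.NGT/Cy, but a TM3 balancer in place of UAS-HP1a-RNAi. If the table names hold, the knockdown flies instead carried UAS-Piwi-RNAi in place of Cy and kept TM3, so that they differ from Ctrl by 1 chromosome 2 and not by 1 chromosome 3. The labelled groups are kept here, and the knockdown libraries are called the libraries labelled HP1a-GKD throughout. The other groups used are the 2 libraries labelled Piwi-GKD, whose tables are named for the HP1a knockdown and whose labelled genotype is UAS-Piwi-RNAi/GAL4-nos.NGT with TM3, and the 2 double-GKD libraries with both RNAi transgenes and no balancer. All flies of the RNA libraries were females aged 0 to 1 day, raised at 18 °C as siblings of 1 cross, all carried the UAS-Dcr-2 transgene, and each RNA sample came from pooled ovaries.

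Piwi is an Argonaute protein of the germline and of somatic ovarian cells that binds piRNAs, a class of small RNAs, enters the nucleus and silences transposable elements (TEs) by guiding heterochromatin formation at their nascent transcripts. HP1a binds the histone mark H3K9me3 in that heterochromatin. A nos driver acts in germ cells, so the follicle cells, muscle sheath and other somatic cells of the ovary keep their own piwi and HP1a mRNA. A balancer chromosome is a multiply inverted chromosome that suppresses recombination, and it therefore carries its own long-separated alleles and TE insertions, as does each transgenic chromosome.

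The 4 libraries held 12296006 to 12802084 estimated read counts over 13937 genes, and all 8 RNA libraries held 10773406 to 12802084. The 10 most abundant genes took 7.49 to 9.10% of a library. At this depth 3 counts are 0.234 to 0.279 counts per 1000000 (CPM), which limits what can be seen of the weakest genes and covers counting error only. Log2 CPM of replicates correlated across genes, which are not independent, by 0.973 in Ctrl and 0.982 in the libraries labelled HP1a-GKD. Germline markers were abundant in all 4 libraries, from 1479 to 1800 TPM (transcripts per 1000000) in sum, and the 19 testis markers found summed to 15 to 21 TPM.

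The first question was which target had fallen. piwi (FBgn0004872, arm 2L) stood at 318 and 276 TPM in Ctrl and at 129 and 134 TPM in the knockdown libraries. The groups did not overlap, and the log2 fold change was -1.23 (SE 0.08, adjusted p 0.000648, edgeR quasi-likelihood test over 9346 genes), a 2.26-fold decrease of mean TPM. The HP1a gene (FBgn0003607, arm 2L), the labelled target, stood at 327 and 328 TPM in Ctrl and at 342 and 358 TPM after the knockdown, with a log2 fold change of 0.00 (SE 0.14, adjusted p 0.997) that lay between -0.09 and 0.09 with a library left out. Thus the library pair labelled HP1a-GKD had less piwi mRNA and no detectable loss of HP1a mRNA, against its label and with the names of its tables. The piwi call held in each of the 4 fits that left out 1 library, with adjusted p-values of 0.00518 to 0.0227. In bulk RNA, fewer germ cells and less mRNA per germ cell cannot be told apart, and mRNA of somatic cells is part of each value.

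**Figure D1:**
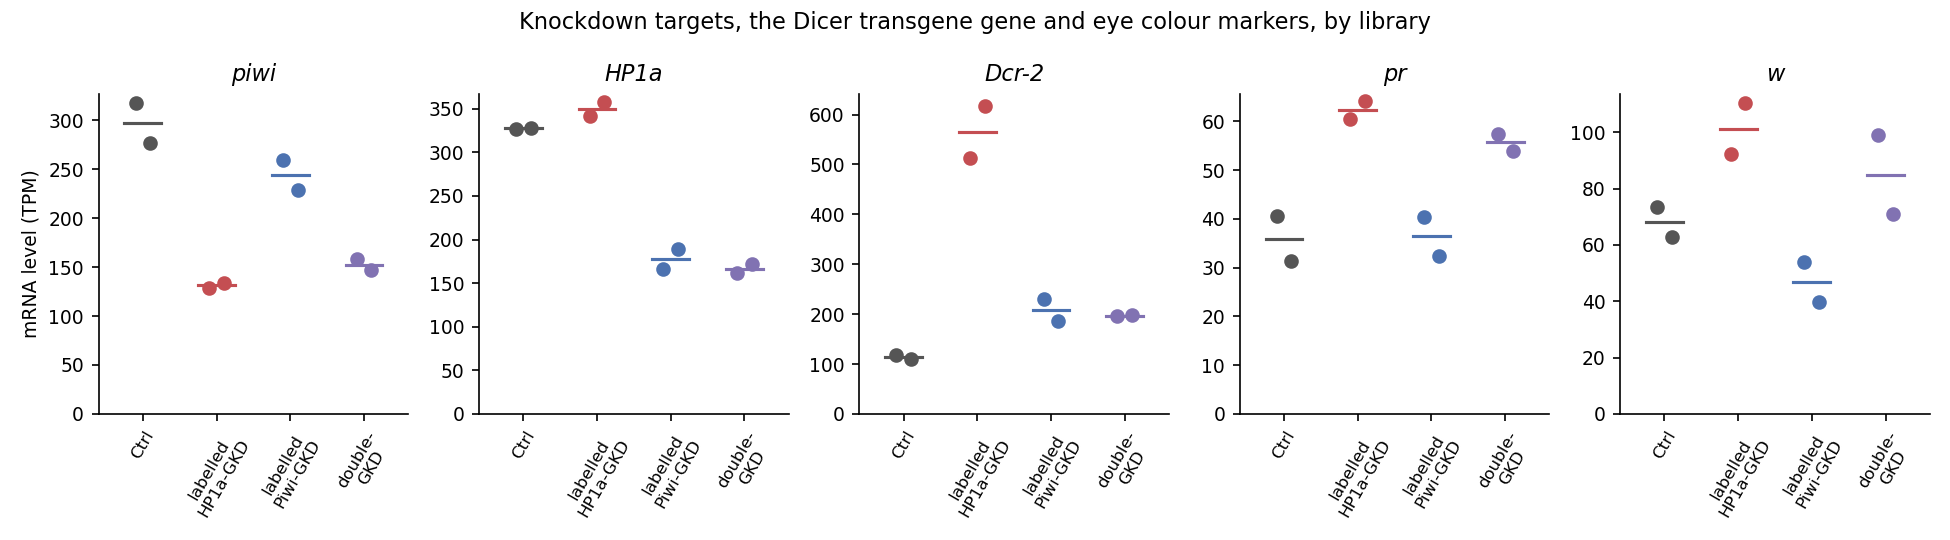
mRNA level in TPM on the vertical axis for 5 genes, with 1 point per library and a line at the mean of each group of 2 libraries. piwi falls in the libraries labelled HP1a-GKD to 129 and 134 TPM while HP1a does not, and Dcr-2 is raised to 514 and 617 TPM in the same libraries and in no other group to that level.

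Few genes beside piwi were called, though 1055 of 9346 (11.3%) had an unadjusted edgeR p under 0.05. At an adjusted p under 0.05, 128 of 9346 genes (1.37%) were called, 82 higher (0.877%) and 46 lower (0.492%) in the libraries labelled HP1a-GKD. All 128 are protein-coding, and in all 128 the CPM values of the groups do not overlap, which was also so for 41.4% of all tested genes. The median size of their log2 fold changes was 1.40, and 87 of the 128 also passed a 2-fold ratio of mean TPM, 57 up and 30 down. They were weakly expressed beside the rest. The 82 higher genes had a median of 4.36 TPM in Ctrl and 12.2 TPM in the knockdown libraries, the 46 lower genes went from 9.57 to 4.18 TPM, and the median of all tested genes in Ctrl was 17.9 TPM. Among the higher genes, 28 were under 1 TPM in both Ctrl libraries. With 2 libraries a group, each library bears on the count. Without replicate 1 or 2 of Ctrl it was 63 or 38 genes, and without replicate 1 or 2 of the libraries labelled HP1a-GKD it was 23 or 31. DESeq2 called 241 genes (2.58%), 141 higher (1.51%) and 100 lower (1.07%), of which 122 were shared in the same direction, 95.3% of the edgeR list and 50.6% of its own.

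Of the 59 called genes named here by rule, 14 were called in all 4 fits with a library left out and 26 in none of them. The 14 are piwi, Naglu, CG7296, flip, CG42750, CG30345, CG2187, Cyp12a4, FBgn0010549, Dcr-2, hiw, CG34002, CG42319 and CG42726. They are described first.

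Dcr-2 (FBgn0034246, arm 2R), the Dicer that cuts long double-stranded RNA into siRNAs, stood at 119 and 111 TPM in Ctrl and at 514 and 617 TPM in the libraries labelled HP1a-GKD, a log2 fold change of 2.25 (SE 0.11, adjusted p 0.000154). The libraries labelled Piwi-GKD had 230 and 186 TPM and double-GKD had 196 and 198 TPM, which are also above both Ctrl libraries. Only the highest level thus belongs to 1 group of the 4. All 4 groups carry UAS-Dcr-2 by label, and reads of the transgene and of the endogenous gene cannot be told apart in these gene totals.

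CG30345 (arm 2R) rose from 14.1 and 12.6 TPM to 127 and 104 TPM, a log2 fold change of 3.07 (SE 0.12, adjusted p 0.000151). CG2187 (arm 3R) rose from 2.79 and 1.62 TPM to 31.0 and 29.3 TPM, by 3.55 on the log2 scale (SE 0.16, adjusted p 0.000151). FBgn0010549 (arm 2R), which encodes a transporter of the ABC family, rose from 1.61 and 1.52 TPM to 12.5 and 11.7 TPM, by 2.91 (SE 0.14, adjusted p 0.000151). In each of these 3 genes both knockdown libraries lay far above both Ctrl libraries. hiw (highwire, arm X), an E3 ubiquitin ligase known from synapse growth, rose from 0.640 and 0.554 TPM to 3.08 and 2.88 TPM, by 2.27 (SE 0.14, adjusted p 0.000648).

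CG7296 (arm 2L) had 0.688 and 0.604 TPM in Ctrl and 47.7 and 42.6 TPM in the libraries labelled HP1a-GKD. Its Ctrl value rests on 3 counts in each library, so the ratio of 67.9 has a counting interval of 30.9 to 186 (95%), and the fitted log2 fold change was 6.03 (adjusted p 0.000151). flip (arm 3R) had 0.170 and 0.375 TPM in Ctrl against 12.9 and 9.72 TPM, a log2 fold change of 5.28 (SE 0.37, adjusted p 0.00105). CG42750 (arm 2L) had 0.140 and 0.0601 TPM in Ctrl against 1.63 and 1.65 TPM, a log2 fold change of 4.01 (SE 0.35, adjusted p 0.00331). These genes were near the detection limit in Ctrl and clearly present after the knockdown. Of the genes that fell, Naglu (arm 2L), the lysosomal alpha-N-acetylglucosaminidase, was the most abundant at this size of change, with 36.4 and 39.0 TPM in Ctrl and 7.05 and 6.80 TPM in the libraries labelled HP1a-GKD (log2 fold change -2.49, SE 0.16, adjusted p 0.000905).

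The other genes at the high end were called in the full fit but in none of the fits with a library left out. Of 6 other settings that kept all libraries of the contrast, CG4582 was called in 5, CG9010 in 4 and the others in all 6. GstE10 (arm 2R), a glutathione transferase, had 0.498 and 0.548 TPM in Ctrl and 36.0 and 39.1 TPM in the libraries labelled HP1a-GKD (log2 fold change 6.07, SE 0.89, adjusted p 0.0252). CG15253 and CG18636 on 2L and CG34430 and CG9010 on 2R had no count in either Ctrl library. Against a floor of 3 counts per library they were at least 8.70-, 8.86-, 7.21- and 7.54-fold higher, at 1.46 to 4.40 TPM. side-III (arm 3R), a member of the sidestep family of cell surface proteins, had 0.0224 and 0.0959 TPM against 1.14 and 2.41 TPM. prom (arm 2R), the Drosophila prominin, had 0.022 and 0.0679 TPM against 1.01 and 1.07 TPM. CG43290 (arm 3R) had 0.476 and 0.838 TPM against 15.4 and 13.5 TPM. CG4582 (arm 3R) had 0.157 and 0.0464 TPM against 2.22 and 1.90 TPM, a counting ratio of 20.2 (7.59 to 75.8).

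At the low end, 3 genes with an own span lost every count. Ada1-1 (arm 2L), a subunit of the SAGA histone acetyltransferase complex, had 3.81 and 6.07 TPM in Ctrl and none in the libraries labelled HP1a-GKD, which is at least 19.1-fold lower. CG31086 (arm 3R) was at least 6.94-fold lower and CG14397 (arm 2L) at least 4.91-fold lower. CG12674 (arm 2L) fell from 6.37 and 7.84 TPM to 0.327 and 0.256 TPM, Cyp6g2 (arm 2R) from 1.79 and 1.97 to 0.0428 and 0.134 TPM, and eyg (arm 3L), a Pax transcription factor of eye and imaginal disc development, from 1.58 and 1.08 to 0.0638 and 0.0973 TPM. All of these were zero or nearly so in both knockdown libraries. CG5096 (arm 2L) fell from 7.84 and 9.71 to 1.12 and 0.943 TPM, and CG1850 (arm 2R) from 1.19 and 1.08 to 0.210 and 0.146 TPM. NimA (arm 2L), of the Nimrod family of phagocyte receptors, Sox15 (arm 2R), an HMG-box transcription factor, and Damm (arm 2R), a caspase, had log2 fold changes of -2.69, -2.63 and -2.55 with adjusted p-values of 0.0404, 0.0173 and 0.0356. The calls of Ada1-1, CG14397, NimA, Sox15 and Damm were lost in every fit with a library left out, and those of CG31086, CG12674, Cyp6g2, eyg, CG5096 and CG1850 in some of these fits, at adjusted p-values of up to 0.152.

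**Figure D2:**
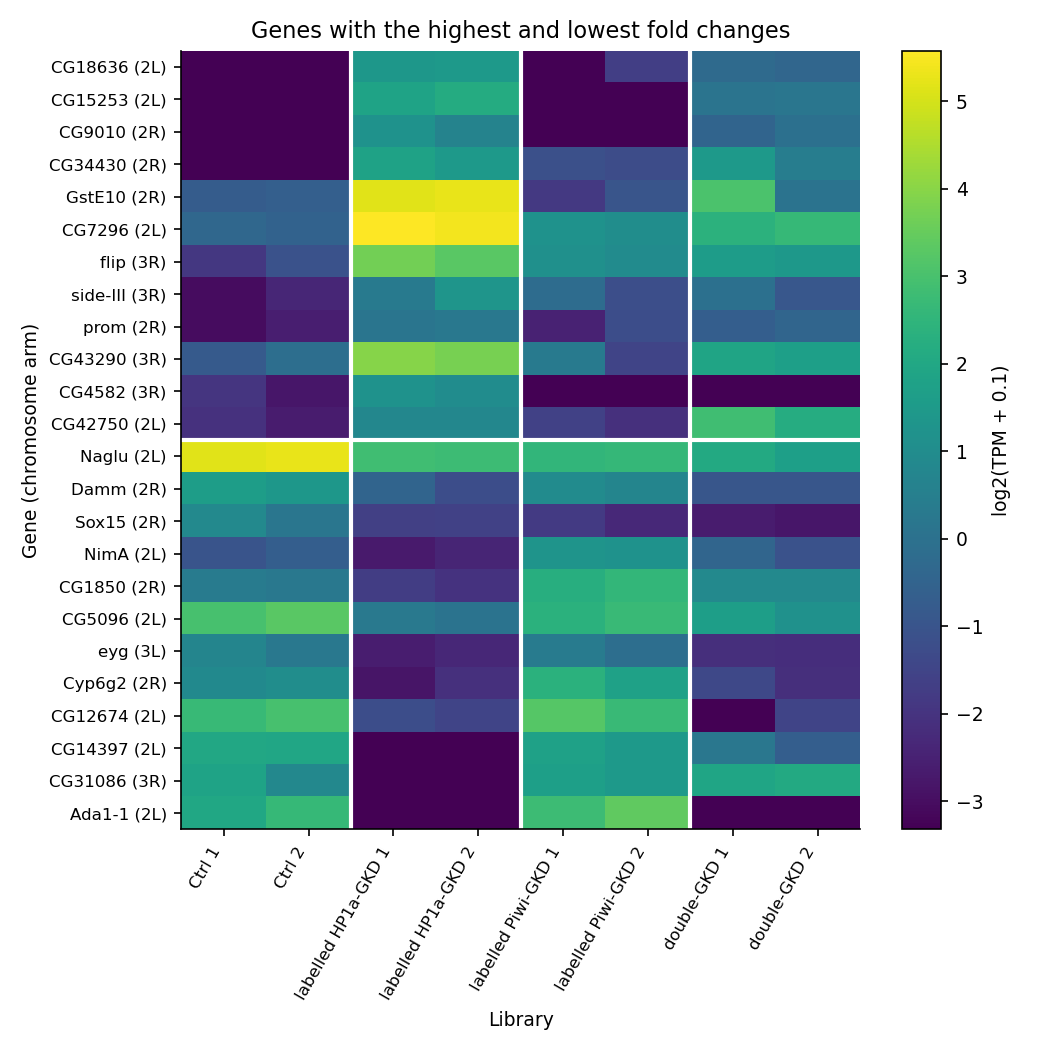
Level of the 12 genes with the highest and the 12 with the lowest log2 fold change, as log2(TPM + 0.1) in colour, with 1 column per library and the chromosome arm beside each gene. Ada1-1 is dark in double-GKD as well as in the libraries labelled HP1a-GKD, CG31086 is dark in the latter only, and Naglu is bright in Ctrl only.

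Several further genes that rose are known from other tissues. They were chosen after their values were seen. Drsl4 (arm 3L), a drosomycin-like peptide gene, had 6.52 and 10.5 TPM in Ctrl and 104 and 114 TPM after the knockdown, with no count in the other 4 libraries. S-Lap1 (arm 3L), a leucyl aminopeptidase of sperm, had 2.47 and 3.5 TPM against 14 and 15.6 TPM. spok (arm 3R), a P450 enzyme of ecdysone synthesis, had 0.165 and 0.436 TPM against 4.39 and 4.78 TPM. Rh7 (arm 3L), a rhodopsin, had 0.232 and 0.167 TPM against 1.31 and 1.45 TPM, and ppk13 (arm 2L), of the pickpocket family of sodium channels, had 0.50 and 0.443 TPM against 2.89 and 3.32 TPM. Their adjusted p-values were 0.0207, 0.00857, 0.0246, 0.00456 and 0.0207. Dh44-R2 (arm 2R), a receptor of diuretic hormone 44, had 1.09 and 0.911 TPM against 5.82 and 7.40 TPM (adjusted p 0.00857). With a library left out, Rh7 stayed called in all 4 fits, S-Lap1 and Dh44-R2 lost the call in some (up to 0.0814 and 0.0825), and Drsl4, spok and ppk13 lost it in all (from 0.0767, 0.0767 and 0.108).

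The called genes were unevenly spread over the chromosomes. Chromosome 2 held 77 of the 128 (60.2%) but 37.5% of the tested genes. The share called was 2.00% of 1652 tested genes on arm 2L and 2.37% of 1855 on arm 2R, against 0.583% of 1715 on arm 3L, 1.05% of 2184 on arm 3R and 0.714% of 1540 on the X chromosome. None of the 74 tested genes of chromosome 4 was called by edgeR, though 6 had an unadjusted p under 0.05, which 11.3% of all tested genes had, and DESeq2 called 2. Chromosome 3, with 33 called genes, lay below the 1.37% of all tested genes at 0.846%. Both directions took part, with 46 genes higher and 31 lower on chromosome 2 and 24 higher and 9 lower on chromosome 3. Among the 87 genes past 2-fold, 53 (60.9%) were on chromosome 2, and DESeq2 placed 59.8% of its 241 genes there. The arm is not given for 7 called genes. By the labels these libraries differ from Ctrl in a chromosome 3, and by the table names in a chromosome 2. No test of the distribution was made, and the parts of the RNA interference, of the RNAi transgenic chromosome and of the missing balancer in these counts cannot be told apart within this comparison.

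**Figure D3:**
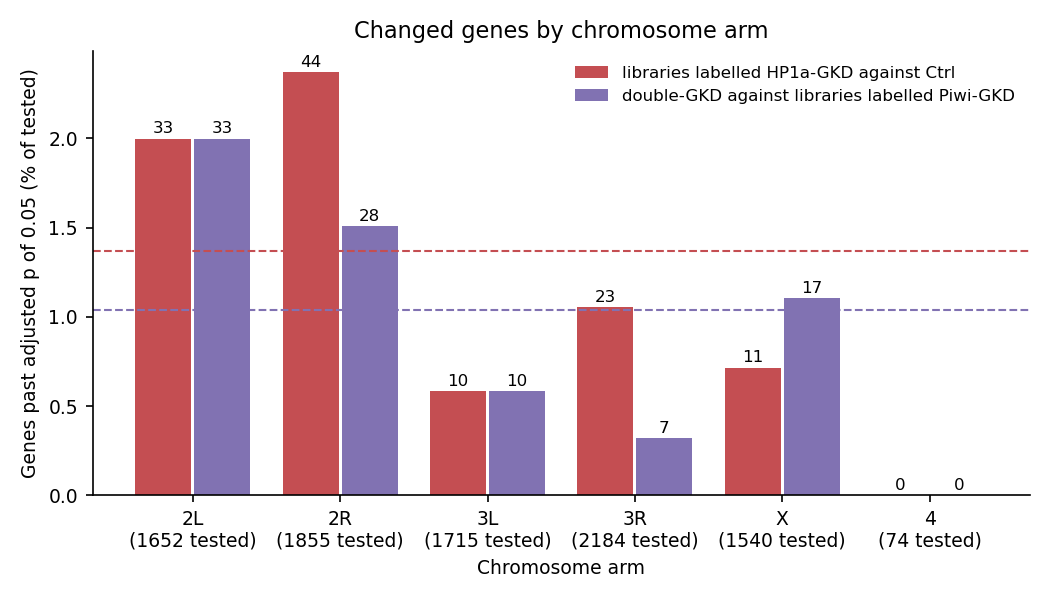
Percent of tested genes past an adjusted p of 0.05 on each chromosome arm, for the libraries labelled HP1a-GKD against Ctrl and for double-GKD against the libraries labelled Piwi-GKD, with the number of genes above each bar and dashed lines at the 1.37% and 1.04% of all tested genes. Both arms of chromosome 2 lie above the dashed line of their comparison, and both arms of chromosome 3 lie below it.

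A second comparison shares no library with the first. The same parts change together in it, so it cannot tell them apart either. By the table names, double-GKD against the libraries labelled Piwi-GKD adds the piwi knockdown and its chromosome 2 to the HP1a knockdown. By the labels it adds the HP1a RNAi chromosome 3 instead. piwi was also lower here, with 259 and 229 TPM in the libraries labelled Piwi-GKD and 158 and 147 TPM in double-GKD (log2 fold change -0.60, SE 0.08, adjusted p 0.0193), and HP1a mRNA was at 166 and 189 against 161 and 172 TPM (adjusted p 0.935). edgeR called 97 genes (1.04%), 39 higher (0.417%) and 58 lower (0.621%), and 61 of them (62.9%) were on chromosome 2, 17 on chromosome 3 and 17 on X. Without replicate 1 or 2 of the libraries labelled Piwi-GKD the count was 23 or 14 genes, without replicate 1 or 2 of double-GKD it was 24 or 40, and with these 4 libraries alone it was 41. Of the 128 genes of the first comparison, 102 (79.7%) had the same sign in the second, against 57.5% of all tested genes. On chromosome 2 it was 65 of 77 (84.4%), against 61.1% of the tested genes of that chromosome. On chromosome 3 it was 24 of 33 (72.7%, against 54.6%), and on X 6 of 11 (54.5%, against 56.7%). Called in the same direction in both comparisons were 35 genes, 27.3% of the first list and 36.1% of the second. Of these 35, 32 are on chromosome 2 and 3 on chromosome 3, and CG15930 on X was called in opposite directions. Across the called genes the log2 fold changes of both comparisons correlated with Pearson's r of 0.825 over 77 genes on chromosome 2, 0.299 over 33 on chromosome 3 and 0.199 over 11 on X. The median ratio of the second to the first log2 fold change was 0.589, 0.0824 and 0.0640 on these chromosomes. Genes are not independent replicates, and low genes weigh most in these values. The 33 genes of chromosome 3 include CG42726 and CG42727, with first log2 fold changes of 10.63 and -10.71. Reads of these 2 genes belong to 1 locus, as described below. Both are counted among the 128, and r without them was not computed.

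**Figure D4:**
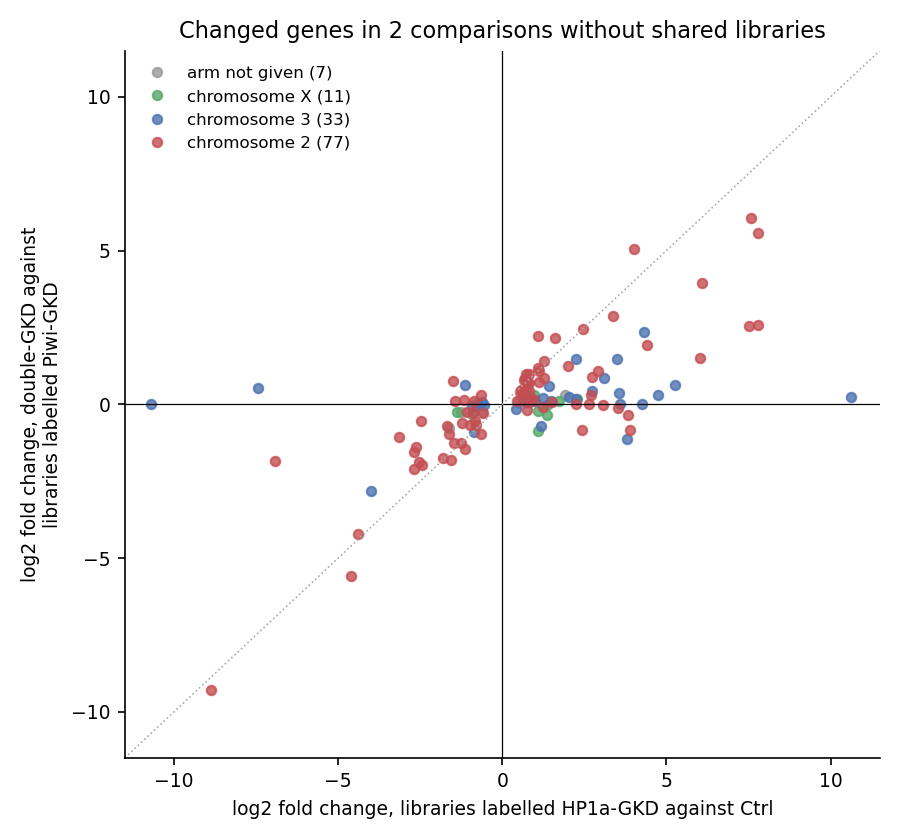
The 128 called genes, with the log2 fold change in the libraries labelled HP1a-GKD against Ctrl on the horizontal axis and that in double-GKD against the libraries labelled Piwi-GKD on the vertical axis, coloured by chromosome, with a dotted line at equal values. Genes of chromosome 2 spread along the diagonal (Pearson's r 0.825), while most genes of chromosomes 3 and X lie near 0 on the vertical axis.

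The genes that moved in both comparisons can be followed through all 8 libraries. Ada1-1 had 6.76 and 10.5 TPM in the libraries labelled Piwi-GKD and, as in the first comparison, no count in double-GKD. CG12674 went from 9.32 and 6.44 TPM to 0 and 0.251 TPM (log2 fold change -5.59, SE 0.62, adjusted p 0.0136), and Cyp6g2 from 4.99 and 3.34 to 0.286 and 0.131 TPM (-4.23, SE 0.43, adjusted p 0.0112). CG42750 went from 0.229 and 0.134 to 7.09 and 4.42 TPM (5.06, SE 0.34, adjusted p 0.00234). In the first comparison the log2 fold changes of CG12674, Cyp6g2 and CG42750 were -4.62, -4.40 and 4.01, so each had the same direction in both. CG18853 (arm 2R) had 28.1 and 24.1 TPM in Ctrl and 65.8 and 63.3 TPM after the knockdown, then 28.4 and 23.5 against 65.4 and 64.6 TPM in the second comparison. CG14275 (arm 2L) had 80.5 and 78.8 against 173 and 180 TPM, and then 97.4 and 101 against 206 and 221 TPM. Marf1 (arm 2L) had 74.6 and 68.7 against 117 and 113 TPM, and then 17.1 in both libraries against 30.9 and 33.3 TPM. CG18853, CG14275 and Marf1 were named after their values were seen. In the first comparison CG18853 stayed called in all 4 fits with a library left out, and CG14275 and Marf1 in none (adjusted p from 0.058 and 0.142). Hasp and stol on 2L and CG5773, CG8888 and Dat (dopamine N-acetyltransferase) on 2R, also named afterwards, fell in both comparisons, by 1.79, 1.55, 2.45, 1.13 and 0.64 on the log2 scale in the first, where Hasp and CG5773 lost the call in some fits with a library left out (adjusted p up to 0.0695 and 0.0634) and stol, CG8888 and Dat in all (from 0.102, 0.151 and 0.114). Outside chromosome 2, eyg on 3L fell in both, from 1.21 and 0.827 to 0.128 and 0.127 TPM in the second (adjusted p 0.0247), and CG34002 on 3L and Cyp12a4 on 3R rose in both.

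Other genes were called in the first comparison with values near 0 in the second. For Dcr-2 the second log2 fold change was 0.01 (SE 0.11, adjusted p 0.988), for CG30345 -0.02 (SE 0.11), for CG2187 0.36 (SE 0.15) and for hiw 0.17 (SE 0.13). The difference between the comparisons, the second log2 fold change minus the first, was tested as an interaction in the same fit. It was called for 25 of 9346 genes (0.267%), 5 above 0 (0.0535%) and 20 below 0 (0.214%), of which 17 are among the 128. In all 17 the interaction had the opposite sign to the first change, that is, the change was smaller or turned when the other knockdown was present. Since the 128 were chosen by the first comparison, whose libraries are also in the interaction, this direction is partly set by the choice.

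The transgenes and balancers carry visible markers that can be read as mRNA. Of 14 marker genes listed, 12 were found and 11 tested. Called were 2 of the 11 (18.2%, beside 1.37% of all genes), Dcr-2 and pr. An unadjusted edgeR p under 0.05 was found for 5 (11.3% of all genes had one), and DESeq2 called 3 (beside 2.58% of all genes). pr (purple, arm 2L), an enzyme of eye pigment synthesis whose mutant allele the CyO balancer carries, had 40.5 and 31.3 TPM in Ctrl and 60.5 and 64.1 TPM in the libraries labelled HP1a-GKD (log2 fold change 0.75, SE 0.10, adjusted p 0.0207). In the second comparison it had 40.5 and 32.5 TPM against 57.4 and 54.0 TPM (0.69, SE 0.10, adjusted p 0.0348). The level was thus higher in both groups whose tables are named for the piwi knockdown. The pr call was lost when only the 4 libraries of the contrast were fitted (adjusted p 0.061) and in some fits with a library left out (0.0435 to 0.186). w (white, arm X), the eye colour gene carried as mini-white by the transgenes, had 73.4 and 63.0 against 92.2 and 110 TPM (0.52, adjusted p 0.173), and 54.0 and 39.7 against 99.0 and 70.8 TPM in the second comparison (0.93, SE 0.14, adjusted p 0.0348). For Sb and Ser, markers of third-chromosome balancers, the first log2 fold changes were 0.51 and 0.24 (adjusted p 0.728 and 0.863), at under 1 TPM. For tsh and tio, 2L genes next to each other, they were 0.79 and -0.02 (adjusted p 0.212 and 0.992). e (ebony), cn (cinnabar) and y (yellow) had adjusted p-values of 0.835, 0.669 and 0.217. kni (arm 3L), of which the marker radius incompletus is an allele, had one of 0.616.

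Genes of detoxification made up a large group. Cytochrome P450 enzymes (Cyp), glutathione transferases (Gst) and UDP-glycosyltransferases (Ugt) modify foreign and internal compounds, lie in tandem clusters and vary in expression between fly strains. Members were taken by the symbol prefixes Cyp, Gst and Ugt, so P450 genes with other symbols, such as spok on 3R described above, are not among them. The family was chosen with earlier results of these data known, and clustered genes are not independent. The shares below are therefore a description only. Of 112 tested members, 15 were called (13.4%, beside 1.37% of all genes), 10 higher and 5 lower, and 33 had an unadjusted p under 0.05 (11.3% of all genes had). The median log2 fold change of the family was 0.09, beside 0.00 for all tested genes. Of the 15, 14 are on chromosome 2, where 63 of the tested members lie, and the exception is Cyp12a4 on 3R. On chromosome 2 alone, 22.2% of the tested members were called, beside 2.20% of all tested genes there. Upward, Ugt36F1 (arm 2L) went from 0.714 and 0.442 to 3.28 and 3.26 TPM (log2 fold change 2.45, SE 0.25, adjusted p 0.00666) and its neighbour Ugt36E1 from 11.6 and 10.2 to 18.2 and 21.1 TPM (0.80, SE 0.12, adjusted p 0.0256). GstE14 (arm 2R), which acts in ecdysteroid synthesis, went from 14.3 and 12.6 to 43.5 and 41.5 TPM (1.62, SE 0.18, adjusted p 0.00879). Cyp12d1-d (arm 2R) went from 7.93 and 5.44 to 14.8 and 14.5 TPM, a value that is uncertain because the genome holds the near-identical copy Cyp12d1-p. Cyp6a8, Cyp6a13, Cyp6a2 and Cyp4e2 on 2R rose by 2.72, 0.91, 0.76 and 0.46 on the log2 scale. Downward, beside Cyp6g2, Cyp6d2 (arm 2R) went from 18.2 and 15.6 to 5.0 and 7.68 TPM and Cyp6a17 (arm 2R) from 15.9 and 18.8 to 7.35 and 7.73 TPM. Ugt317A1 and Cyp6a19 on 2R fell by 0.81 and 0.59. Cyp6a17, Cyp6a19 and Cyp6a8 lie within 3 places of the next along 2R, and they did not move alike.

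The called detoxification genes were followed in the second comparison. Of the 15, 14 had the same sign there and 9 were called in the same direction. Ugt36F1 went from 2.84 and 3.32 TPM in the libraries labelled Piwi-GKD to 17.9 and 14.3 TPM in double-GKD (log2 fold change 2.44, SE 0.22, adjusted p 0.00781), and Cyp6a17 from 57.3 and 54.7 to 21.8 and 22.1 TPM (-1.27, SE 0.16, adjusted p 0.0193). GstE10 differed between the double-GKD replicates, at 8.24 and 0.959 TPM, against 0.180 and 0.407 TPM, and was not called there (adjusted p 0.185).

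**Figure D5:**
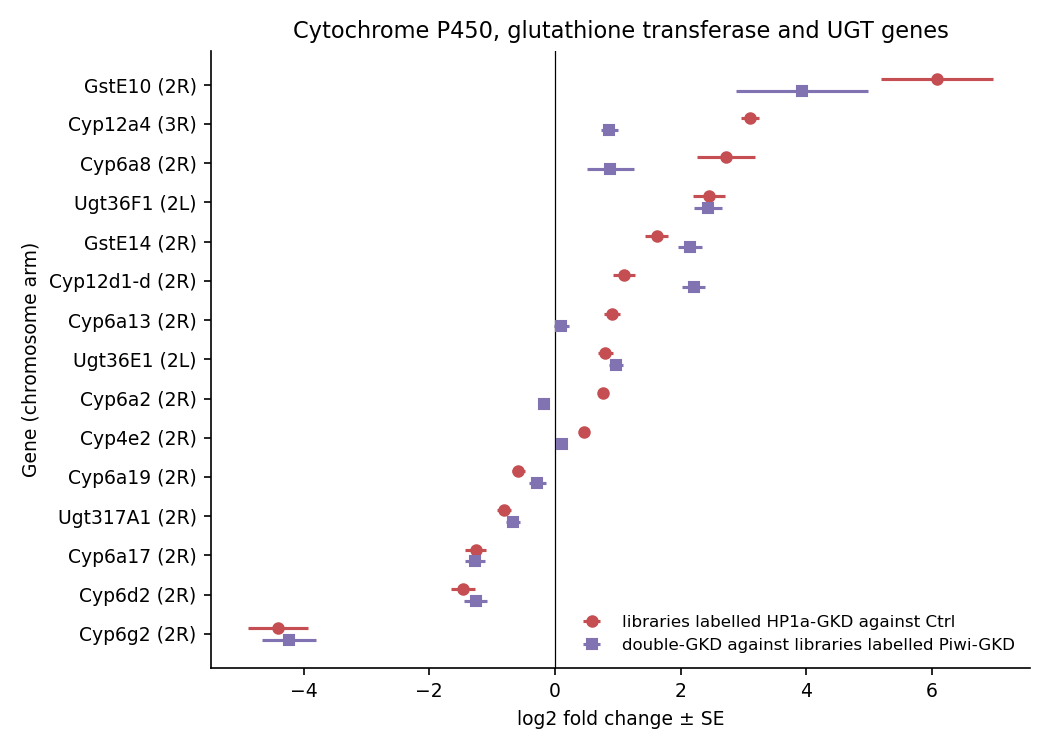
Log2 fold change with its SE for the 15 called detoxification genes, as circles for the libraries labelled HP1a-GKD against Ctrl and squares for double-GKD against the libraries labelled Piwi-GKD. Circles and squares lie close together for Cyp6g2, Cyp6d2, Cyp6a17 and Ugt36F1 and apart for Cyp12a4, Cyp6a8 and Cyp12d1-d.

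TE insertions near genes were the study's reason for sequencing DNA, and the list of insertion sites comes from DNA of whole double-GKD flies aged 2 to 4 days, which carry no balancer by label. An insertion present only on Cy or TM3 is thus not expected in it. A listed site on an RNAi transgenic chromosome can in turn be absent from Ctrl. Presence of the sites in each of the groups compared was not established. Coordinates on release 5 of the genome (dm3), the build of the site list, were at hand for a part of the genes. Among these, a site lay inside or within 3 kb of 6 of 14 genes called higher (42.9%), 1 of 10 called lower (10%) and 232 of 1779 not called (13%). With sites supported from both sides only, it was 5 of 14, 0 of 10 and 88 of 1779 (4.95%). At 10 kb the counts were 6, 3 and 433. These are counts of a few genes, with no test. A site anywhere inside a gene was counted, so long genes had more room for one, and gene length was not matched.

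The study lists 14 genes next to TE insertions, chosen on these same samples, so their direction is not independent evidence. Of 13 tested, 10 were called higher (CG7296, Cyp12a4, CG34002, CG42319, flip, CG34430, CG13168, CG32814, CG9380 and CG17549). The median log2 fold change of the 13 was 3.49 in the fit and 2.85 with the 2 genes without Ctrl counts at their lower bound. CG7296 lies at 10686391 to 10686988 on 2L, and a 412 insertion, an LTR retrotransposon, was called 841 bases outside it from both sides at a frequency of 0.855. Cyp12a4 lies at 14960885 to 14962858 on 3R, with a 412 insertion at 442 bases, the DNA transposon Bari1 at 871 bases and springer at 2358 bases. It had 2.45 and 1.77 TPM in Ctrl and 18.9 and 18.9 TPM in the libraries labelled HP1a-GKD (log2 fold change 3.10, SE 0.15, adjusted p 0.000151), and 19.1 and 16.1 TPM in the libraries labelled Piwi-GKD against 32.6 and 28.0 TPM in double-GKD. CG34002, at 17851574 to 17853582 on 3L, with invader4 at 804 bases and hopper2 at 2138 bases, both at a frequency of 1.00, had 0.796 and 0.780 TPM in Ctrl and 8.46 and 10.1 TPM in the knockdown libraries (3.49, SE 0.24, adjusted p 0.00105). CG42319 had 0.218 and 0.234 against 4.62 and 4.99 TPM, with a copia site at 1272 bases and a frequency of 0.295. flip, at 94943 to 103515 on 3R, holds a Burdock insertion, an LTR element, with a frequency of 1.00. The sites of flip and CG42319, the 412 and springer sites of Cyp12a4 and the invader4 site of CG34002 were supported from 1 side only. Bari1 and hopper2 were supported from both sides. CG34002 also holds an INE-1 site, supported from 1 side at a frequency of 0.321. CG7296, Cyp12a4, CG34002, CG42319 and flip were all under 3 TPM in both Ctrl libraries. CG3348, TfIIA-S-2 and CG9616, the other tested members, had adjusted p-values of 0.112, 0.0975 and 0.121. CG43391 was not tested, with no count in Ctrl against 5.7 and 3.6 counts.

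A site was also inside or near other called genes. Oamb (arm 3R), the octopamine receptor that acts in ovulation, holds a blood insertion at a frequency of 0.733 and had 1.87 and 1.85 TPM in Ctrl against 3.59 and 4.12 TPM (log2 fold change 0.99, SE 0.16, adjusted p 0.033). rut (arm X), an adenylyl cyclase, had 4.42 and 3.34 against 11.9 and 9.76 TPM (1.35, SE 0.16, adjusted p 0.0129), and holds an X-element and an INE-1 site. Drip (arm 2R), an aquaporin, and CG3777 (arm X) rose by 0.65 and 1.08 on the log2 scale, and both hold sites. Genes with a site also fell. twin (arm 3R), the CCR4 deadenylase that shortens poly(A) tails, holds a flea site and had 35.8 and 28.0 TPM in Ctrl against 21.7 and 22.0 TPM (-0.61, SE 0.09, adjusted p 0.0225). phr6-4 (arm 2L), a photolyase that repairs ultraviolet damage, has an HMS-Beagle site 4503 bases away and had 41.8 and 42.6 against 22.1 and 24.5 TPM (-0.90, SE 0.13, adjusted p 0.0219). The sites of twin and phr6-4 were supported from 1 side only, and that of Oamb from both sides.

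For the other listed genes of the piRNA pathway edgeR made no call. In so small a set this does not show that they kept their level. In 4 lists, of the Piwi silencing complex, piRNA cluster transcription, ping-pong and nuage, and phasing and loading, 46 genes were tested. None was called by edgeR, beside 1.37% of all genes. Of these, 5 had an unadjusted p under 0.05 (11.3% of all genes had) and DESeq2 called 2, and the median log2 fold change was -0.03. The values ran from -0.43 to 0.26, apart from 1 of the near-identical histone H1 genes, whose reads fell in 1 of the 4 libraries only and which cannot be read by itself. Of the 9 genes of the siRNA and miRNA machinery, Dcr-2 alone was called by edgeR (11.1%). None of 17 tested genes of DNA damage and cell death was called (2 at an unadjusted p under 0.05, 1 by DESeq2), none of 12 antimicrobial peptide and immune effector genes (2 and 0), none of 17 heat shock genes (0 and 0), and none of 9 eggshell and yolk genes (0 and 0). Of the digestive serine protease genes by symbol none of 2 was called (1 and 0), and of the receptor and odorant-binding genes none of 25 (1 and 0).

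No marker of the ovary's cell types passed the edgeR test, but in some lists all log2 fold changes lay on 1 side of 0. The 11 germline markers tested, such as osk, orb and gcl, summed to 1800 and 1726 TPM in Ctrl and to 1498 and 1479 TPM in the libraries labelled HP1a-GKD, with a median log2 fold change of -0.28, 4 at an unadjusted p under 0.05 and 1 called by DESeq2. The germline sums did not overlap between the groups. The 13 follicle cell markers had a median of 0.22 (2 at an unadjusted p under 0.05, 0 by DESeq2) and the 14 of the muscle sheath 0.14 (1 and 0), with sums of 3987 and 3930 TPM against 4298 and 4821 TPM. The 9 fat body markers had a median of 0.50 (2 and 2), with sums of 106 and 79.4 against 119 and 160 TPM, and the 10 hemocyte markers 0.02 (0 and 0). All tested germline markers were lower, with log2 fold changes of -0.48 to -0.0046. All muscle sheath markers (0.0063 to 1.14) and all fat body markers (0.34 to 1.02) were higher. Follicle cell markers (-0.13 to 0.81) and hemocyte markers (-0.35 to 0.51) had both signs. Of 3 testis and 4 gut and oviduct markers tested, none had an unadjusted p under 0.05 or was called by DESeq2. In the second comparison the germline markers summed to 409 and 365 TPM in the libraries labelled Piwi-GKD and to 378 and 370 TPM in double-GKD, below the sums of the first 4 libraries. The part of these cell types in the results above was not tested.

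A few of the called genes cannot be read by themselves. CG42726 and CG42727 (arm 3R) share start and end. CG42726 had no count in Ctrl against 216 and 169 counts after the knockdown, and CG42727 had 201 and 198 counts in Ctrl and none after the knockdown. Their sum was 201 and 198 counts in Ctrl against 216 and 169, a log2 fold change of -0.08 (SE 0.15, adjusted p 0.90), so that reads of 1 locus were assigned to the first or the second gene as a whole. CG42353 (arm X), which also shares its span, rose from 8.75 and 7.90 to 14.6 and 16.8 TPM (0.86, SE 0.13, adjusted p 0.0256).

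Side by side with the remaining comparisons, which share the Ctrl libraries and so are not independent of the first, the 82 higher genes were also called higher in 51 cases and lower in 13 in the libraries labelled Piwi-GKD, and higher in 66 and lower in 7 in double-GKD. Of the 46 lower genes, 24 were also lower and 10 higher in the libraries labelled Piwi-GKD, and 33 were lower and 3 higher in double-GKD. In these comparisons 58.4% and 56.2% of all genes were called, 29.3% and 28.1% higher and 29.1% and 28.1% lower.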

How the data were processed

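RNA of 8 ovary libraries (rRNA-depleted, single-end reads of 50 nt) was aligned by the authors with STAR to release 5 of the genome (dm3) and quantified with Salmon. Versions are not given in the sources used here. Salmon's estimated counts, as deposited, are expected numbers of reads for each gene without normalization, and many are fractional. The deposited TPM values are scaled by the authors for effective length and library sum. The deposited effective lengths are Salmon's. The authors called TE insertion sites from 1 DNA library of double-GKD flies, and the deposited frequency is the fraction of read pairs at a site that support it, with unknown depth. The labels give separate biological replicates, numbered 1 and 2 in each group.

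After rounding, the counts entered a quasi-likelihood fit (glmQLFit and glmQLFTest, edgeR 4.0.16 with R 4.3.3 and limma 3.58.1) over 8 libraries in 4 groups, with TMM factors of 0.909 to 0.941 in the 4 libraries compared, filterByExpr, and Benjamini-Hochberg adjustment over 9346 genes at a threshold of 0.05. TMM uses the same scaling for all genes, so fold changes are relative to the bulk of genes (median 0.00 on the log2 scale). Each SE given is the size of the log2 fold change divided by the square root of the F statistic of the test. It is thus derived from the test and is not a fitted standard error. Alternatives were DESeq2 1.42.0, RLE factors, no filter, the 4 libraries alone, a replicate block, summed counts of genes with a shared span, each library left out, the fold rule, and the distance and support of insertion sites. With a library left out, the lone sample is assumed to vary like the others. On simulated counts for the first comparison, 200 of 9240 genes were changed. Of these, edgeR recovered 75.5% (14.0% at a log2 fold of 0.5, 88.0% at 1 and 100% at 2 and 3) with 5.6% false calls. DESeq2 recovered 73.5% with 8.1%. Recovery was split by size of change only. The simulated counts used 1 dispersion (spread between replicates) for all genes, which was lower than the common dispersion of the data. Apart from the planted changes, all groups had the same mean. Changes were planted only in genes with at least 200 counts summed over the 8 libraries. The rates can thus be better than in the data, and recovery at low expression was not tested separately.

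Arms and symbols came from a Release 6 gene table, in which 13481 of 13937 genes (96.7%) were found, and no coordinate of it is printed. It marked 112 genes as non-coding and 263 as sharing start and end with another gene. Strand is not in that table, so shared spans rest on start and end only. Release 5 coordinates came from the paper's supplementary tables for 2013 genes, and counts near sites use the table not chosen for TE proximity. Plots use Python 3.11.15, pandas 2.3.3, scipy 1.17.1 and matplotlib 3.10.9.

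Named by rule were piwi, HP1a (symbol Su(var)205), the 12 highest, 12 lowest and 10 most significant called genes with non-overlapping groups, at most 6 genes of shared span, called genes with a site within 10 kb, called members of the lists, the study's TE-adjacent genes and the transgene and balancer markers. List members not found by symbol were matched by an older name that belongs to 1 gene only. Members and lists were chosen with earlier results of these data known. One gene is not reported here.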

Additional observations from a re-analysis of the deposited data

Results flagged for a closer look

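For 12 named genes the change in the libraries labelled HP1a-GKD against Ctrl differed from the change in double-GKD against the libraries labelled Piwi-GKD by the edgeR interaction test (adjusted p under 0.05, which 0.267% of all tested genes passed). The interaction on the log2 scale was -10.4 for CG42726, whose reads cannot be separated from CG42727, -4.64 for flip, -4.51 for CG7296, -4.19 for CG42319, -3.20 for CG2187, -3.09 for CG30345, -2.24 for Dcr-2, -2.24 for Cyp12a4, -2.10 for hiw, -1.81 for the ABC transporter gene FBgn0010549, -0.938 for Cyp6a2 and 1.94 for Naglu. In each the sign is opposite to the first change. Adjusted p-values ran from 0.00084 for CG30345 to 0.0286 for Naglu. In Naglu the other single knockdown was itself low, with 5.65 and 5.98 TPM against 36.4 and 39.0 TPM in Ctrl, and double-GKD had 4.18 and 3.19 TPM. In CG2187 Ctrl had 2.79 and 1.62 TPM and the libraries labelled Piwi-GKD and double-GKD had 3.13 to 4.11 TPM, beside 31.0 and 29.3 TPM in the libraries labelled HP1a-GKD.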

How the results depend on the processing

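The 128 calls of the first comparison became 241 with DESeq2 (141 higher, 100 lower) and 193 with the replicate block (74 lower), and the 97 of the second became 221 with DESeq2, 41 with its 4 libraries alone and 163 with the replicate block. With 1 library left out the first comparison gave 23 to 63 genes (19 to 40 higher, 4 to 23 lower), 23 to 53 past 2-fold, and the second 14 to 40. The cause was not tested, beside the lower number of libraries in such fits. Over all settings 54.8 to 65.8% of called genes were on chromosome 2 and 77.6 to 82.7% had the same sign in the second comparison. Of 59 named calls, 45 held in every setting with all libraries of the contrast. With genes of a shared span summed, CG42726 (10.63) and CG42727 (-10.71) became 1 locus at -0.0772 (adjusted p 0.90), which ends both calls and turns the sign of the first. No other called gene named by rule turned its direction. w passed the threshold with DESeq2 (adjusted p 0.0278).

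Neither the labels nor the data establish that replicate numbers pair the libraries. Deviations of same-numbered libraries correlated by 0.141 between Ctrl and the libraries labelled HP1a-GKD, and over 6 pairs of groups by -0.0432 to 0.233, with a mean of 0.106 and 4 pairs above 0.1. With 2 libraries a group, changes near a log2 fold of 0.5 were mostly missed in simulated counts, so the absence of a call does not show that a gene did not change.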
